A study of Homo sapiens with 10 samples.

Results

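Tensins and the core proteins of focal adhesions were followed across 10 mRNA sequencing libraries of LS180, a human colorectal cancer cell line. The 10 genes were all 4 tensins (TNS1, TNS2, TNS3 and TNS4) together with 6 integrin, scaffold and actin-linking genes (ITGB1, TLN1, VCL, PXN, ZYX and FLNA), out of 58870 genes in the deposited table. They were found by gene symbol, and each of the 10 was present and passed the filter on low counts. The set was selected on the levels of TNS4 and ZYX, which stood higher in lines with RNASE1 guides than in NTC lines, so the values of that comparison describe the genes and carry no test here. LS180 had been made into 5 stable CRISPR interference lines, in which a guide RNA brings an inactive Cas9 with repressive activity to a gene. Lines sg1, sg2 and sg3 carried guides against RNASE1, a secreted ribonuclease, and lines NTC1 and NTC2 carried non-targeting guides. Each line gave 2 libraries, lettered B and A, so there were 6 guide libraries and 4 NTC libraries, none from drug-treated cells. The series concerns an action of RNASE1 inside cells on gene expression. The labels do not say that B and A were grown separately, so the p-values rest on a spread between libraries that may be technical. The labels used here do not say whether each line is 1 clone.

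Focal adhesions are the points at which a cell grips the matrix around it. Integrins span the membrane and bind matrix proteins outside, talin binds the integrin tail inside and activates it, and vinculin, paxillin, zyxin, filamin and the tensins tie that complex to actin filaments and to signalling enzymes. TNS4, also called CTEN, lacks the actin-binding domain of the other tensins and is known as a gene that is raised in many colorectal tumours.

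The base composition of these transcripts differed widely, and the difference between guide and NTC lines moved with GC content across genes at 10 CPM or more. The longest annotated transcript ran from 39.98% GC in ITGB1 and 45.1% in VCL, through 55.6% in TNS3, 57.2% in TNS1, 57.7% in TLN1 and 57.9% in TNS4, to 60.2% in PXN, 62.2% in TNS2, 62.2% in FLNA and 64.9% in ZYX. The first 150 coding bases are shown for TNS4, the most abundant gene of the set, ZYX, the richest in GC, and ITGB1, the poorest. They were read from the GENCODE release 29 transcript with the longest complete coding sequence (GRCh38), and capitals mark runs of 5 or more G or C.
TNS4 (chr17:40496276-40496425, minus strand): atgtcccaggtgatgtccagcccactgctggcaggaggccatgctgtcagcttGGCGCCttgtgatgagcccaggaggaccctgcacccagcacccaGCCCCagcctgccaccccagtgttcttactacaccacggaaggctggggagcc
ZYX (chr7:143381572-143381721, plus strand): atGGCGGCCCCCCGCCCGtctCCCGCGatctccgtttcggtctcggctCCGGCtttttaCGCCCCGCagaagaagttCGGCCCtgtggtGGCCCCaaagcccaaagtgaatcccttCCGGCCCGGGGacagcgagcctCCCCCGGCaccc
ITGB1 (chr10:32932518-32935558, minus strand, spliced from 2 exons): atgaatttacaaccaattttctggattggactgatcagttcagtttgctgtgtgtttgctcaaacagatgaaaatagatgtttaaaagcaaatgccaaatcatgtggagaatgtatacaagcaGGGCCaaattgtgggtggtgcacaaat
These stretches held 64.7% GC in TNS4, 69.3% in ZYX and 37.3% in ITGB1. Runs of G or C numbered 8 in the ZYX stretch, the longest of 16 bases, 2 in TNS4 and 1 in ITGB1. Over the whole coding sequence GC was 60.3% in TNS4, 63.8% in ZYX and 41.2% in ITGB1.

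Promoter sequence was taken from RefSeq (GRCh38.p14), from 250 bases before to 50 after each annotated start. It was at hand for 9 of the 10 genes, not TNS4, with 19 start sites between them. The CArG box, the site of serum response factor, which drives many actin and adhesion genes, was present in 1 of the 19 windows, that of FLNA, and in 1.29% of all 35116 promoter windows. In FLNA it began 94 bases before the start, and it is in capitals here.
FLNA promoter (chrX:154374585-154374884, minus strand): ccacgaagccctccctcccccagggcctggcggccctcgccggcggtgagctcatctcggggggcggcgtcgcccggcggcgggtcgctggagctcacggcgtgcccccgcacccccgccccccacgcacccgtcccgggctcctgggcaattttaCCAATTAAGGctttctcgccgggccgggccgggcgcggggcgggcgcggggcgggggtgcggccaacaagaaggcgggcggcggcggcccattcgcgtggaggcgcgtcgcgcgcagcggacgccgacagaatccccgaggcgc
The TEAD motif CATTCC was in 5 of the 19 windows and in 14.0% of all windows, the AP-1 motif TGANTCA in 0 of 19 and 7.71%, and the SP1 motif GGGCGG in 11 of 19 and 44.95%. Both strands were searched, and a match is letters in a window, not evidence of binding.

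Library totals lay between 39026605 and 45050991 counts, of which the 10 genes held 0.243% to 0.275%. RNASE1 averaged 2.12 ± 1.25 CPM (counts scaled to the library total; SD over 3 lines) in guide lines and 20.6 ± 0.58 CPM (SD over 2 lines) in NTC lines, and each guide library was below each NTC library. All 9 epithelial markers examined were at 1 CPM or more, with a summed level of 5433 to 6983 CPM in guide libraries and 5534 to 7043 CPM in NTC libraries. Markers of other cell types summed to 4.04 to 5.32 CPM in guide and 3.76 to 4.58 CPM in NTC libraries for 7 fibroblast genes, and to 8.67 to 10.6 CPM and 8.33 to 9.61 CPM for 6 leukocyte genes, most of it CD68. The 5 endothelial genes summed to at most 0.358 CPM in guide and 0.285 CPM in NTC libraries, and COL1A2, KDR, PTPRC and LST1 had 0 counts. In such bulk samples, a lower level in every cell and fewer cells with the transcript cannot be told apart.

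TNS4 was the most abundant tensin of these cells. Levels are compared between genes as RPKM, which scales counts to the library total and to the kilobases of merged exon. TNS4 had 139 RPKM on average over the 10 libraries (range 113 to 158), above 98.3% of the 16373 genes ranked, and made up 94.98% to 96.2% of the tensin RPKM in guide libraries and 94.8% to 96.0% in NTC libraries. TNS3 followed at 4.31 RPKM (3.76 to 5.01) and TNS2 at 2.04 RPKM (1.81 to 2.40). TNS1, with only 33 to 84 counts per library, had 0.0765 RPKM (0.0474 to 0.132). The ranges of the 4 tensins did not touch: TNS4 stood 32.1-fold above TNS3 and 67.8-fold above TNS2.

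Among the adhesion core, the actin crosslinker FLNA at 63.8 RPKM (56.8 to 68.1), the integrin subunit ITGB1 at 62.8 RPKM (59.6 to 67.1) and ZYX at 55.4 RPKM (51.0 to 59.5) led. FLNA was above ITGB1 in 6 of 10 libraries, all 6 of them guide libraries, so their order is not fixed, while FLNA and ITGB1 were each above ZYX in 10 of 10. TLN1, which encodes talin, had 28.9 RPKM (25.2 to 32.1) and overlapped in range with the adaptor PXN at 24.8 RPKM (23.3 to 25.9), although TLN1 was higher in 10 of 10 libraries. VCL, which encodes vinculin, was lowest at 17.1 RPKM (16.0 to 17.8) and lay below every other core gene in all libraries. Per kilobase of the longest transcript in place of merged exons, ITGB1 (99.7) stood above FLNA (79.2) and ZYX (77.4), so this order also depends on the length used.

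**Figure D1:**
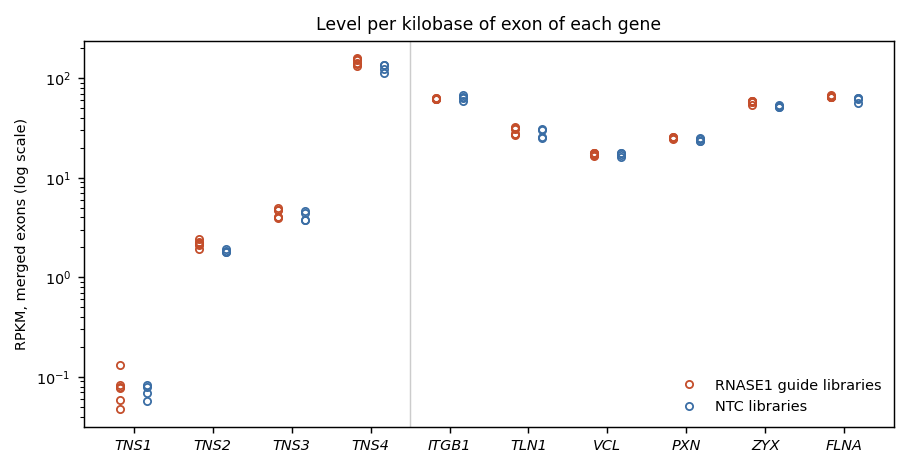
Level of each gene in RPKM on a log axis, 1 point per library, with RNASE1 guide libraries left of NTC libraries. TNS4 lies between 113 and 158 RPKM, above the other 9 genes in these libraries, while TNS1 stays at or below 0.132 RPKM.

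Between guide lines and NTC lines the differences were small, and 9 of the 10 genes had a positive log2 fold change, with a median of 0.09. Over all genes at 10 CPM or more the median was -0.0029 and 47.4% were positive. The set was chosen around this comparison, so the count describes it and is no support for it. Counts of B and A were summed per line for these fold changes, and 4 of 17335 genes tested passed an adjusted p of 0.05 (0.0231%; edgeR quasi-likelihood test).

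TNS4 had 642, 685 and 676 CPM in the B libraries of sg1, sg2 and sg3, against 593 and 550 CPM in those of NTC1 and NTC2. In the A libraries it had 752, 734 and 767 CPM in sg1, sg2 and sg3, against 656 and 661 CPM in NTC1 and NTC2. Within each letter the guide libraries lay above the NTC libraries, but across letters they overlapped, since the A libraries of the NTC lines exceeded the B library of sg1. Line means were 711 ± 11.6 CPM (SD, n = 3) in guide lines and 614 ± 12.3 CPM (SD, n = 2) in NTC lines, a log2 fold change of 0.21 (SE 0.03, 95% interval 0.15 to 0.27). With NTC2 B left out it was 0.15 and with NTC2 A left out 0.28, settings in which the sums no longer hold B and A equally.

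TNS2, a tensin with a phosphatase-like domain that mouse kidney podocytes need, had 17.2, 18.3 and 15.7 CPM in the B libraries of sg1, sg2 and sg3, against 14.9 and 14.6 CPM in NTC1 and NTC2. The A libraries had 17.7, 19.5 and 17.4 CPM in sg1, sg2 and sg3, against 15.5 and 14.6 CPM in NTC1 and NTC2. All 6 guide libraries lay above all 4 NTC libraries, and sg2 was highest in both letters. The log2 fold change was 0.24 (SE 0.06, 95% interval 0.12 to 0.37), at 616 to 869 counts per library. On the other strand, the antisense transcript AC068888.1 covers 4.498% of the exon bases of TNS2, and SPRYD3 covers 0.704%. The kit does not mark strand, so reads that lie within these shared bases cannot be told apart by strand.

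TNS3, which binds integrin tails and signalling proteins, differed less between the arms than between the letters. It had 56.0, 59.1 and 56.0 CPM in the B libraries of sg1, sg2 and sg3, against 55.2 and 51.9 CPM in NTC1 and NTC2. The A libraries had 47.7, 46.8 and 47.5 CPM in sg1, sg2 and sg3, against 44.3 CPM in each NTC line. Guide libraries were above NTC libraries within each letter by a small margin, with a log2 fold change of 0.09 (SE 0.03, 95% interval 0.02 to 0.16). Without NTC1 A it was 0.015, and without NTC1 B 0.17, settings in which the sums no longer hold B and A equally. In a fit over 10 libraries with the letter as a term it was 0.09 (95% interval 0.03 to 0.15).

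TNS1, an actin-binding tensin, gave no readable difference at this depth. Guide libraries had 0.771, 1.27 and 2.15 CPM as lowest, median and highest, against 0.926, 1.21 and 1.36 CPM in NTC libraries. The guide lines lay on both sides of the NTC lines, with sg1 B highest and sg3 A lowest of the 10 libraries. The log2 fold change of 0.13 had an interval from -0.42 to 0.68, and it turned to -0.12 without line sg1 and to -0.04 without line NTC2.

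**Figure D2:**
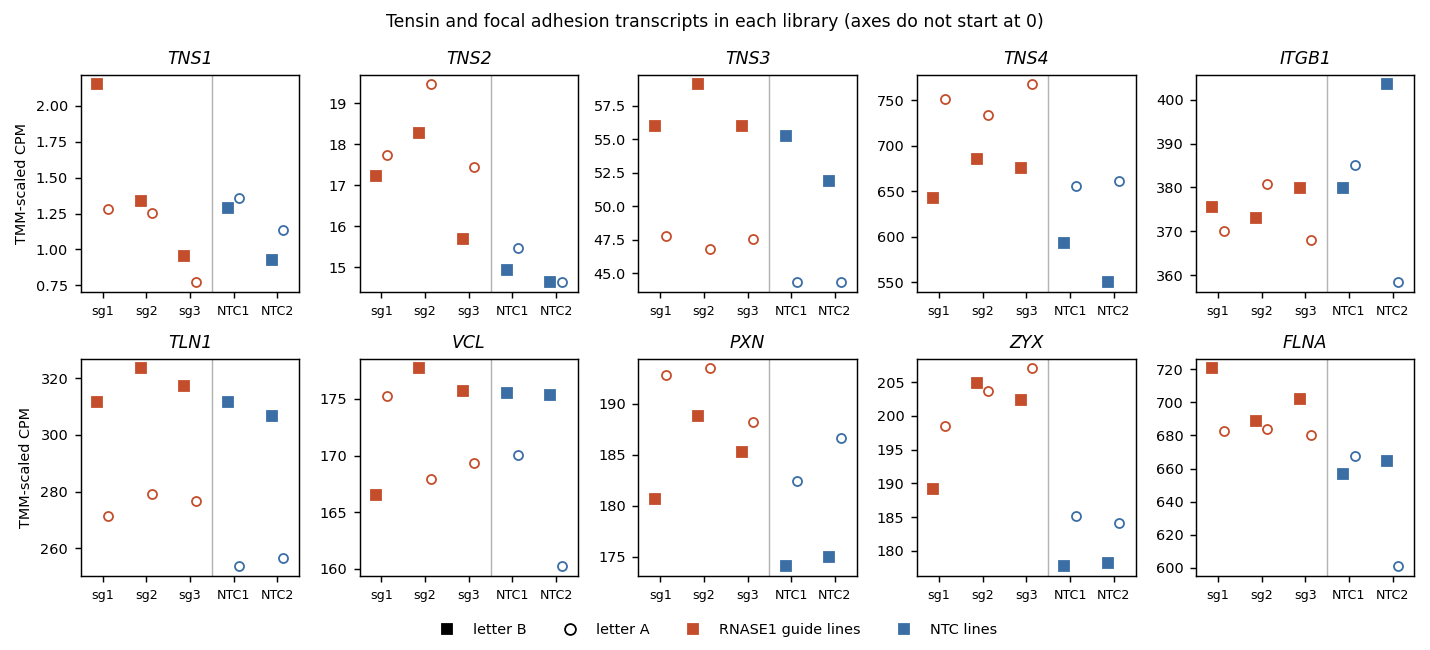
TMM-scaled CPM of each gene in each library (vertical axes differ and do not start at 0), guide lines left of the grey line and NTC lines right of it, with filled squares for letter B and open circles for letter A. For TNS2, ZYX and FLNA the 6 guide libraries lie above the 4 NTC libraries, while for TNS3 and TLN1 the letters lie further apart than the arms.

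ITGB1, the beta subunit shared by many integrin receptors, did not follow the tensins. It had 368, 374 and 381 CPM as lowest, median and highest of the guide libraries, against 358, 382 and 403 CPM in the NTC libraries, and the guide libraries lay within the range of the NTC libraries. The log2 fold change was -0.02 (SE 0.02, 95% interval -0.08 to 0.03), and it was 0.016 without NTC2 B. TLN1 was at 311, 323 and 317 CPM in the B libraries of sg1, sg2 and sg3, against 311 and 307 CPM in NTC1 and NTC2. In the A libraries it had 272, 279 and 277 CPM in sg1, sg2 and sg3, against 254 and 257 CPM in NTC1 and NTC2. Only the A libraries separated the arms in full, and the log2 fold change of TLN1 was 0.07 (SE 0.03, 95% interval 0.01 to 0.13). It was -0.0029 without NTC1 A and 0.15 without NTC1 B, where the sums again hold B and A unequally. In a fit over 10 libraries with the letter as a term it was 0.07 (95% interval 0.02 to 0.13).

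VCL, which strengthens the link between talin and actin, had 167, 172 and 178 CPM as lowest, median and highest of the guide libraries, against 160, 173 and 175 CPM in the NTC libraries. The arms overlapped within both letters, and the log2 fold change of 0.02 (SE 0.03, 95% interval -0.04 to 0.07) changed sign without line NTC2 (-0.0054). Of its exon bases 11.1% are shared with AP3M1 on the other strand. PXN, a docking platform for kinases, had 181 to 193 CPM in guide libraries with a median of 189, against 174 to 187 CPM in NTC libraries with a median of 179. Guide libraries were higher within each letter but overlapped across letters, and the log2 fold change was 0.07 (SE 0.03, 95% interval 0.01 to 0.13). PXN-AS1 covers 12.3% of the exon bases of PXN on the other strand.

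ZYX, a LIM-domain protein that gathers at strained actin fibres, separated the arms in all libraries. It had 189, 205 and 202 CPM in the B libraries of sg1, sg2 and sg3, against 178 CPM in each NTC line. The A libraries had 199, 204 and 207 CPM in sg1, sg2 and sg3, against 185 and 184 CPM in NTC1 and NTC2. The smallest gap was between sg1 B at 189 CPM and NTC1 A at 185 CPM. Line means were 201 ± 5.91 CPM (SD, n = 3) in guide lines and 181 ± 0.088 CPM (SD, n = 2) in NTC lines, a log2 fold change of 0.15 (SE 0.03, 95% interval 0.09 to 0.22).

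FLNA, which cross-links actin and binds integrin tails, had 720, 689 and 702 CPM in the B libraries of sg1, sg2 and sg3, against 657 and 665 CPM in NTC1 and NTC2. The A libraries had 683, 684 and 680 CPM in sg1, sg2 and sg3, against 667 and 601 CPM in NTC1 and NTC2. Again all 6 guide libraries lay above all 4 NTC libraries, with NTC2 A well below the rest. The log2 fold change was 0.10 (SE 0.03, 95% interval 0.04 to 0.16), or 0.06 without NTC2 A. Counted over the set, all guide libraries exceeded all NTC libraries for 3 of 10 genes, against 0.588% of genes at 10 CPM or more, and did so within both letters for 6 of 10, against 3.14%. The rule used this comparison, so nothing is read from these shares.

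The 3 guide lines shared the NTC lines as their controls, so their values are set side by side only, from a fit of all 10 libraries with the letter as a replicate block. TNS4 stood at 0.18, 0.21 and 0.23 on the log2 scale in sg1, sg2 and sg3. ZYX stood at 0.10, 0.17 and 0.18, and TNS2 at 0.23, 0.34 and 0.15. TNS1 ran from 0.54 in sg1 over 0.15 in sg2 to -0.44 in sg3. The sign was the same in all 3 lines for each gene of the set except TNS1, though for ITGB1 and VCL each 95% interval covered 0. With shared controls and a set chosen on this comparison, nothing is read from that agreement, and its share over all genes was not counted. FLNA stood at 0.12, 0.08 and 0.10, TLN1 at 0.05, 0.10 and 0.08, and ITGB1 at -0.03, -0.02 and -0.03.

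Whether the guide lines differed among themselves was tested directly, and no gene of the set passed. Of 16411 genes, 0 were called without the replicate block (edgeR, 226 at an unadjusted p under 0.05; DESeq2 called 7), and 8 with it, which is 0.0487%. TNS1 had the smallest p of the set (unadjusted p = 0.0236, adjusted p = 1, edgeR), with 2.15 and 1.28 CPM in sg1, 1.34 and 1.25 CPM in sg2, and 0.954 and 0.771 CPM in sg3 for letters B and A. NTC2 against NTC1 likewise called 0 of 16411 genes (edgeR, 282 at an unadjusted p under 0.05; DESeq2 called 2) or 2 with the replicate block, 0.0122%, and 0 of the 10 genes in either fit. Without the block, TNS4 differed by -0.04 between NTC2 and NTC1 (95% interval -0.29 to 0.20) and ZYX by -0.0026 (-0.13 to 0.12). With the replicate block the values were -0.05 (-0.14 to 0.05) for TNS4 and -0.0025 (-0.09 to 0.08) for ZYX.

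For TNS3 and TLN1 the fold change between letters (0.27 and 0.23) was larger than that between arms (0.09 and 0.07), a gap that was not tested. Letter B was compared with letter A over the 5 lines with line as a term, and 4850 of 16411 genes passed, 29.6%, or 43.6% of genes at 10 CPM or more. Of the 10 genes 3 passed, so the set was not called more often than genes at large. TLN1 was higher in B in 5 of 5 lines, with 314 ± 6.46 CPM in B and 268 ± 11.7 CPM in A (SD, n = 5 libraries each), a log2 fold change of 0.23 (SE 0.03, edgeR adjusted p = 3.56e-05). TNS3 was higher in B in 5 of 5 lines, with 55.6 ± 2.56 CPM in B and 46.1 ± 1.70 CPM in A, a log2 fold change of 0.27 (SE 0.03, edgeR adjusted p = 5.02e-05). TNS4 went the other way, lower in B in 5 of 5 lines, with 629 ± 57.3 CPM in B and 714 ± 52.2 CPM in A and a log2 fold change of -0.18 (SE 0.03, edgeR adjusted p = 0.000289).

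These 3 results stood under each alternative run, and VCL (0.05) passed as well without line sg1 or without sg1 B alone (0.08 in each). The other 7 genes did not pass with all libraries in the fit, with values from -0.07 in TNS2 (95% interval -0.16 to 0.03) to 0.17 in TNS1 (-0.23 to 0.56). ZYX was at -0.04 (-0.09 to 0.01), and PXN, lower in B in 5 of 5 lines, at -0.06 (-0.12 to -0.01; edgeR adjusted p = 0.0837). TNS4 and TNS3 thus moved in opposite directions between the letters while both were higher in guide than in NTC lines within each letter.

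**Figure D3:**
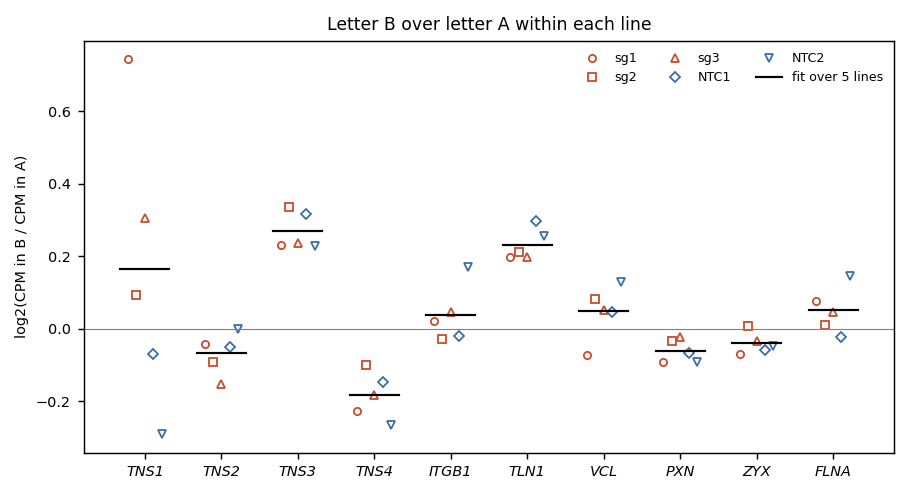
log2 ratio of CPM in letter B over letter A for each gene in each line (guide lines in red, NTC lines in blue), with a bar for the fit over 5 lines. TNS3 (0.23 to 0.34) and TLN1 (0.20 to 0.30) are above 0 in all 5 lines and TNS4 (-0.26 to -0.10) is below 0 in all 5.

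Whether the difference between guide and NTC lines itself changed with the letter was tested as an interaction. No gene of 16411 passed (edgeR, 941 at an unadjusted p under 0.05; DESeq2 called 3), and 0 of the 10. For TNS4 the guide against NTC difference was larger in B than in A by 0.04 (95% interval -0.08 to 0.15), and for ZYX by 0.02 (-0.09 to 0.13). Fitted alone, the B libraries gave 0.23 and the A libraries 0.19 for TNS4, and 0.16 and 0.13 for ZYX.

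Transcript GC moved with the comparison of arms. Across 9523 genes at 10 CPM or more, the Spearman correlation between transcript GC and the log2 fold change was 0.50, as a description over genes of the same libraries. The median ran from -0.03 in genes below 40% GC to 0.05 in genes at 65% or more. The correlation was 0.53 for sg1, 0.18 for sg2 and 0.49 for sg3 against the NTC lines, 0.07 for NTC2 against NTC1 and 0.03 for letter B against letter A. The order of the set follows this in part: ITGB1 and VCL, the poorest in GC, had the 2 lowest fold changes, while the other 8 genes all have at least 55.6% GC.

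Set beside genes within 1 percentage point of the same GC, TNS4, TNS2 and ZYX lay past the 95th percentile. For TNS4 the 564 such genes had a median of 0.03 and a 5th to 95th percentile of -0.04 to 0.12, which leaves TNS4 0.19 above the median. For TNS2 the median was 0.04 (-0.04 to 0.12) and the gene 0.21 above it. For ZYX the median was 0.05 (-0.03 to 0.13) and the gene 0.11 above it. By guide line, from the fit with the replicate block, TNS4 lay past its range in sg1, sg2 and sg3. ZYX lay inside its range in sg1 (0.10, range -0.04 to 0.14). It was past the 95th percentile in sg2 (0.17 against 0.14) and in sg3 (0.18 against 0.16). TNS2 was also past it in each line, but in sg3 only by 0.150 against 0.149. TNS1, at 0.13, was also past its range of -0.04 to 0.10, but with an interval that covers all of it. The other 6 lay inside their ranges, with FLNA 0.06, TNS3 0.07, TLN1 0.05, PXN 0.04, VCL 0.03 and ITGB1 0.0020 above the median of genes of like GC. These windows use the comparison that chose the set and are no independent test.

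With GC offsets per library in the fit, the log2 fold change was 0.18 for TNS4, 0.21 for TNS2 and 0.11 for ZYX. FLNA came to 0.06, TNS3 to 0.07, TLN1 and PXN to 0.04, VCL to 0.03 and ITGB1 to 0.0025. The part of GC in these differences was not tested beyond these values.

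**Figure D4:**
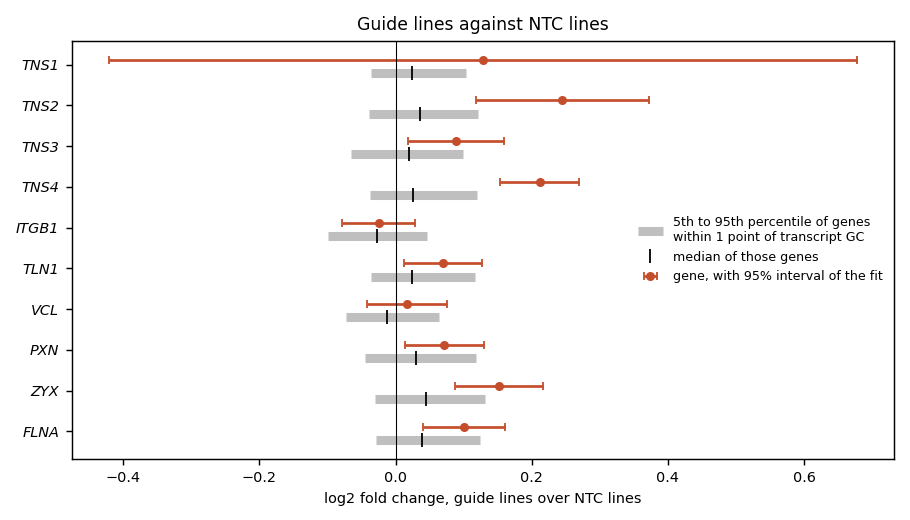
log2 fold change of guide lines over NTC lines for each gene with its 95% interval (red), above a grey bar for the 5th to 95th percentile of genes within 1 point of the same transcript GC and a tick for their median. TNS4, TNS2, ZYX and TNS1 lie to the right of their grey bars, TNS1 with an interval that covers all of its bar. ITGB1 and VCL lie within theirs.

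**Figure D5:**
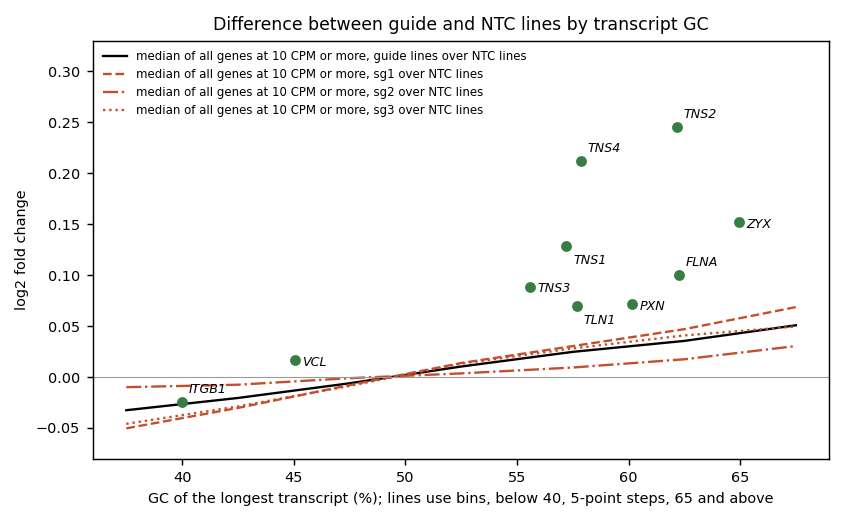
log2 fold change of each gene for guide lines over NTC lines against GC of its longest transcript (%), with lines for the median of all genes at 10 CPM or more per GC bin, for all guide lines and for sg1, sg2 and sg3. The median for all guide lines climbs from -0.03 to 0.05 with GC, and the dashed and dotted lines of sg1 and sg3 are steeper than that of sg2.

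Genes most like TNS4 and ZYX were looked up by the Pearson r of log2 CPM over the 10 libraries, centred on the mean of each letter, among genes at 10 CPM or more. For TNS4 they were SOX12 (0.97), TNFRSF11A (0.96), WBP2 (0.96), ACSM3 (0.96) and SAMD1 (0.96). For ZYX they were HSF1 (0.96), PTPN23 (0.96), FLII (0.95), VPS9D1-AS1 (0.95) and TNS4 itself (0.95). The libraries share their arms and depth, and all of these genes had positive arm fold changes of 0.07 to 0.21, so these values describe the 10 libraries only. Within the set, TNS4 also ran with TNS3 (0.93), PXN (0.86), TLN1 (0.82) and TNS2 (0.78). It ran less with FLNA (0.67), VCL (0.28) and TNS1 (0.014), and against ITGB1 (-0.51). These values were not centred on the arm, so they carry the difference that chose the set and are no support for it. Without centring on the letter, the value for TNS4 and TNS3 was -0.34.

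The wider adhesion machinery was taken from 5 lists that leave out the 10 genes. In the comparison of arms 0 of their 111 tested genes passed (edgeR, 23 at an unadjusted p under 0.05, beside 1384 of all 17335). The share among genes at 10 CPM or more was not counted for this comparison, so nothing is read from the 23. List medians ran from -0.01 in integrin subunits to 0.03 in actin crosslinkers and contractile genes. No gene of the lists passed in NTC2 against NTC1, among the guide lines or in the interaction (edgeR, 1, 1 and 4 of 110 at an unadjusted p under 0.05). Between the letters 53 of 110 passed, 48.2%, with 23 higher and 30 lower in B. Over all genes 29.6% passed, and 43.6% of those at 10 CPM or more, so the counts of the single lists that follow are to be read against shares of that size.

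Of the integrin subunits 0 were higher and 6 lower in B out of 14 tested, with a median of -0.10. ITGB7, a leukocyte integrin subunit, was at 2.32 ± 0.396 CPM in B and 3.89 ± 0.604 CPM in A (SD, n = 5), a log2 fold change of -0.75 (edgeR adjusted p = 0.000786). ITGA3 (-0.21), ITGAE (-0.29) and ITGB4 (-0.13), the hemidesmosome subunit, also fell. ITGA6, the most abundant alpha subunit at 1179 CPM, did not pass (0.09). Their arm values were 0.12 for ITGA3, -0.11 for ITGAE and 0.14 for ITGB4.

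Adhesion adaptors gave 8 higher and 5 lower out of 31, among them TLN2, the second talin, at 104 ± 4.01 CPM in B and 85.7 ± 5.32 CPM in A, a log2 fold change of 0.27 like that of TLN1. LPP, a relative of zyxin, rose by 0.32, ENAH, an actin filament elongation factor, by 0.22 and LIMD1 by 0.22. Of kinases and small GTPase genes 7 were higher and 6 lower out of 25, with DOCK1 (0.24) and DLC1 (0.22) higher and RHOB (-0.24) and CDC42 (-0.16) lower in B.

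Actin crosslinkers and contractile genes gave 4 higher and 9 lower out of 26. The non-muscle myosin heavy chain MYH9 was at 685 ± 24.6 CPM in B and 558 ± 35.5 CPM in A, a log2 fold change of 0.30 (edgeR adjusted p = 9.43e-06), and MYH14 rose by 0.22. ACTB (-0.14) and the myosin light chain MYL12B (-0.15) were lower. Among matrix ligands 4 were higher and 4 lower out of 14, with the laminin chains LAMB1 (0.29), LAMA5 (0.21) and LAMC1 (0.16) higher in B.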

How the data were processed

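For the 10 polyadenylated-RNA libraries the authors deposited expected counts per gene, made with RSEM as the table's name says. The submitters' processing notes name hg38, CASAVA 1.8.2, TopHat2 2.0.8 and FastQC 0.11.2; what each did and which annotation was used is not given in the sources used here. Of all values 7.12% were not whole, in this set those of ITGB1, because RSEM shares out reads that match more than 1 gene. Per the labels' protocols the library kit does not mark strand.

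Expected counts were rounded, scaled by TMM and tested with the edgeR 4.0.16 quasi-likelihood test in R 4.3.3 after filterByExpr, with two-sided Benjamini-Hochberg adjustment over all genes tested and a threshold of 0.05. Guide lines were set against NTC lines on counts of B and A summed per line, and the letter, NTC2 against NTC1, the guide lines among themselves and the arm by letter interaction were fitted over 10 libraries. SE and 95% intervals come from the fitted F statistic. RPKM uses merged exons of GENCODE release 29 on GRCh38, which matched 58597 of 58870 identifiers once versions were removed, and GC is that of the longest transcript. Alternatives were DESeq2 1.42.0, its size factors, no filter, a mean of 5 CPM or more, GC offsets (a spline with 5 degrees of freedom), the letter as a replicate block, letters alone, and leaving out each library or line. The fits were also run on simulated counts, which held no overall shift between letters except for the letter comparison. These data do hold such a shift, so the simulation does not show how the other fits behave on them.

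The letters pair the libraries: deviations of same-lettered libraries from their line means correlated by 0.48 to 0.78 in 10 of 10 pairs of lines over 9527 genes at 10 CPM or more, though by 0.03 to 0.15 over all 16411 tested. Between the libraries of a line the variance was 15.2 to 36.1 times that of sampling. This spread includes the difference between the letters and does not show whether B and A were grown separately.

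Named genes are the 10 genes, the list genes past the threshold (at most 4 per list by smallest p) or else the 3 most abundant, and the 5 genes most like TNS4 and ZYX. Of the list genes taken by this rule, 1 is not reported here. The genes, lists and comparisons were chosen with earlier results of these data known.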

Additional observations from a re-analysis of the deposited data

Results flagged for a closer look

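FLNA in the NTC libraries was flagged because 1 library lay far from the other 3. NTC2 A had 601 CPM, against 665 CPM in NTC2 B, 667 CPM in NTC1 A and 657 CPM in NTC1 B. It was the 1 group flagged of 20 checked (each gene in each arm), and chance alone flags about 1 in 20. Without it the log2 fold change of FLNA between guide and NTC lines was 0.06, against 0.10 with it.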

How the results depend on the processing

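In the comparison of guide with NTC lines, 4 genes passed (edgeR), against 70 with DESeq2, 238 with no filter, 7 at a mean of 5 CPM or more, 2 with the replicate block over 10 libraries, 9 with the replicate block on line means and 11 with A libraries alone. Leaving out a library or line gave 1 to 29. The direction of TNS2, TNS3, TNS4, ZYX, PXN and FLNA was the same in all of these settings. TNS4 moved to 0.18 with GC offsets, to 0.18 with the replicate block and GC offsets and to 0.19 with A libraries alone, and to 0.15 to 0.28 without single libraries or lines. ZYX moved to 0.11 with GC offsets, to 0.10 with the replicate block and GC offsets and to 0.11 with GC averaged over transcripts. The causes of the larger counts were not tested.

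For letter B against letter A the count was within 1.5 times the main one in each setting, and TNS3, TNS4 and TLN1 passed in each. NTC2 against NTC1 called 2 genes with DESeq2, 57 with no filter, 2 with the replicate block and 0 to 1 without single libraries. The guide lines among themselves gave 7 with DESeq2, 141 with no filter, 8 with the replicate block and 0 to 2 without single libraries. The interaction gave 3 with DESeq2, 101 with no filter, 2 at a mean of 5 CPM or more and 2 to 8 without single libraries. The replicate block changed no call of the 10 genes in NTC2 against NTC1 or among the guide lines, and the interaction holds the letter already.

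Differences near 0 changed sign. For NTC2 against NTC1 no filter gave 0.0052 for ZYX, 0.0017 for TLN1 and 0.0018 for ITGB1, and GC offsets gave 0.00096 for ZYX and 0.0021 for ITGB1. Without single libraries the same difference ran from -0.20 to 0.12 for TNS3, -0.19 to 0.085 for TNS4, -0.032 to 0.026 for ZYX, -0.11 to 0.018 for VCL, -0.15 to 0.15 for TLN1, -0.029 to 0.070 for PXN, -0.090 to 0.075 for ITGB1 and -0.14 to 0.0030 for FLNA. That fit holds no term for the letter, so without a library of NTC1 or NTC2 the letters were no longer balanced between these lines. The part of the letter in these ranges was not tested. The interaction of ZYX was -0.020 with GC offsets. Without single libraries it ran from -0.054 to 0.051 for TNS3, -0.027 to 0.10 for TNS4, -0.16 to 0.029 for ITGB1 and -0.10 to 0.064 for FLNA. None of these passed a test in any setting.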
